A study of Mus musculus with 45 samples.

Results

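Ifit1, Ifit2, Ifit3, Mx1, Mx2, Rsad2 and Cmpk2 are 7 of the 19494 named genes measured on whole-transcript arrays of mouse ileum. They were chosen by symbol, with the probe of the highest mean taken per symbol, and each of the 7 had 1 probe. The values are log2 intensities from 45 arrays, 1 per mouse, in 9 genotype groups of 5 mice. Tissue was taken at 11 weeks of age from mice kept under specific pathogen-free conditions on regular chow.

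The 2 control groups carried floxed alleles only and were labelled Casp8 fl/fl and Fadd fl/fl. FADD IEC-KO and CASP8 IEC-KO mice lacked FADD or caspase-8 in intestinal epithelial cells. FADD IEC-KO was further combined with Zbp1-/-, with Mlkl-/- or with RIPK3 IEC-KO, and CASP8 IEC-KO was combined with Mlkl-/-. The triple mutant was FADD IEC-KO CASP8 IEC-KO Mlkl-/-, named from the sample titles because its genotype field leaves out FADD. The Zbp1 and Mlkl alleles were constitutive, so they were absent from all cells of the tissue, whereas Fadd, Casp8 and Ripk3 were deleted in the epithelium alone. The Cre line, the genetic background and the sex of the mice were not given in the sources used here. Arrays of whole ileum hold epithelium, stroma, muscle and blood-borne cells together, so fewer cells of a type and less RNA per cell cannot be told apart.

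The members are effector genes of the antiviral interferon response. Type I and type III interferons act through receptors and the kinases JAK1 and TYK2 on transcription factors, STAT2 and IRF9 among them, which bind interferon-stimulated response elements in promoters of such genes. The IFIT proteins bind foreign RNA and inhibit its translation. The MX proteins are dynamin-like GTPases that block virus replication, and many inbred laboratory mouse strains carry defective alleles of both. RefSeq lists Mx1 and Mx2 as transcribed pseudogenes in its mouse reference, so the array reads their transcript and says nothing of protein. Rsad2 encodes viperin, a radical SAM enzyme that makes a chain-terminating nucleotide from CTP, and Cmpk2, its neighbour in the genome, encodes a mitochondrial nucleotide kinase. FADD and caspase-8 restrain necroptosis, a lytic cell death in which RIPK3, engaged by the nucleic acid sensor ZBP1 among others, phosphorylates MLKL, the pore-forming executor.

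Promoter sequence from RefSeq (assembly GRCm38.p6) was listed for 5 of the 7 members, in windows of 250 bases before to 50 bases after a transcription start. Each window was searched on both strands for GAAA followed after any 2 bases by GAAA again, the core letters of the interferon-stimulated response element (TTTC, 2 bases and TTTC when read from the other strand), with overlapping matches allowed. The stretches just before the start are shown because the members moved together, with matches in capitals and bases given 5′ to 3′ in the direction of transcription. They lie at chr19:34640744-34640888 on the plus strand for Ifit1, chr19:34583369-34583528 on the plus strand for Ifit3, chr12:26456453-26456612 on the minus strand for Rsad2, chr19:34550534-34550693 on the plus strand for Ifit2 and chr12:26469055-26469214 on the plus strand for Cmpk2.
Ifit1: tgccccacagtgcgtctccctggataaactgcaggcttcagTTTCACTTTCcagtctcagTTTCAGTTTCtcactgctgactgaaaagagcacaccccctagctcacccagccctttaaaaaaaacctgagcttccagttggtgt
Ifit3: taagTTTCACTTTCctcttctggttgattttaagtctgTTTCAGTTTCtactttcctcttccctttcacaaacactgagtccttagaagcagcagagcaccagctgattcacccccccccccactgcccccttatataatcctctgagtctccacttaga
Rsad2: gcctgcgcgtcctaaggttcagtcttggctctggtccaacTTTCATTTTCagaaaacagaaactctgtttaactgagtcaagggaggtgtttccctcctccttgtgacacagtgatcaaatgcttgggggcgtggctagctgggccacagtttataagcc
Ifit2: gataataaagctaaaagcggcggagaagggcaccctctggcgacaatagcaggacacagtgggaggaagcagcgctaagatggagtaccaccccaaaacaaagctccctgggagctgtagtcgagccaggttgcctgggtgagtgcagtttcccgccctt
Cmpk2: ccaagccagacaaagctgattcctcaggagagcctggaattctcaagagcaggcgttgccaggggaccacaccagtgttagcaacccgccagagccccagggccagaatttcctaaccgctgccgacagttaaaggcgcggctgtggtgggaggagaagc
Ifit1 held 2 matches, beginning 104 and 85 bases before the start (positions -104 and -85), and Ifit3 held 2, at -156 and -122. Rsad2 held 1 match, at -120. The windows of Ifit2 (2 starts, 1 of them shown) and Cmpk2 held no match, which says only that these letters are not in these windows. Among all 32851 mouse windows, 3.44% held the motif. The Ifit1 window shared 245 bases with that of its paralog Ifit1bl2, whose start lies 146 bases away on the opposite strand, so the same letters stand before both genes. The letters TTCNNNGAA, the core of the gamma-activated sequence, stood in 8.3% of all windows and in 1 of the 2 windows of Ifit2, and in none of the windows of Ifit1, Ifit3, Rsad2 and Cmpk2.

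The arrays were alike in scale, with medians between 6.36 and 6.44, and none of them held identical values. Epithelial markers were high in every mouse, from 10.62 for Sis to 12.97 for Fabp2, as for the labelled tissue. Fadd fl/fl mice had a Fadd level of 7.53 ± 0.06 (SD, n = 5), and it lay between 6.05 and 6.45 in the group means of the 5 genotypes without epithelial FADD. The mouse labelled FADD IEC-KO replicate 1 stood apart, with Fadd at 7.32 against 5.96 to 6.45 in the other 4 of its group, and the members' differences from FADD IEC-KO, and the counts of the pathway lists with MLKL loss, are given with and without it. Casp8 fl/fl mice had a Casp8 level of 11.35 ± 0.09, against 10.23 ± 0.51 for CASP8 IEC-KO, where replicate 1 was the highest at 10.89. The level was 9.55 ± 0.09 for the triple mutant and 9.84 ± 0.21 for CASP8 IEC-KO Mlkl-/-. Mlkl was lower by the test in FADD IEC-KO Mlkl-/- (8.05 ± 0.22) than in FADD IEC-KO (9.14 ± 0.41, adjusted p = 0.000517, limma), and lower in the triple mutant (7.14 ± 0.19) than in the floxed mice. In the group labelled CASP8 IEC-KO Mlkl-/- it was 8.43 ± 0.22, against 8.62 ± 0.21 in Casp8 fl/fl (adjusted p = 0.769, limma) and 8.99 ± 0.26 in CASP8 IEC-KO (adjusted p = 0.132). The same probe was 1.29 ± 0.20 (SE) lower in the triple mutant than in this group (adjusted p = 0.000154). By the test the Mlkl level does not bear out the label of CASP8 IEC-KO Mlkl-/-, and every direction given below for that group, or for the 3 genotypes without MLKL together, rests on the label. Ripk3 was lower in FADD IEC-KO RIPK3 IEC-KO (7.50 ± 0.17) than in FADD IEC-KO (8.75 ± 0.41), by 1.25 ± 0.16 (SE, adjusted p = 3.53e-05). Zbp1 was not lower by the test in FADD IEC-KO Zbp1-/- (6.04 ± 0.31) than in FADD IEC-KO (6.96 ± 0.80), with a difference of -0.93 ± 0.29 (adjusted p = 0.0653) and overlapping groups. It was lower than in Fadd fl/fl, with a difference of -1.11 ± 0.29 (adjusted p = 0.0091) and overlapping groups. In FADD IEC-KO Mlkl-/- it was higher than in FADD IEC-KO Zbp1-/- by 1.89 ± 0.29 (adjusted p = 6.29e-05), without overlap. This gap does not measure loss in the Zbp1-/- mice alone, since the mean of FADD IEC-KO Mlkl-/- was itself raised. It stood above FADD IEC-KO by 0.96 ± 0.29 (adjusted p = 0.0926) and above Fadd fl/fl by 0.78 ± 0.29 (adjusted p = 0.0801), neither of them called. Mouse numbers in the titles fell under 100 or at 200 and over, with no stated meaning. The 5 FADD IEC-KO Mlkl-/- mice all fell in the low series and the 5 triple mutants all in the high one.

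The genotype means of all 7 members were highest in CASP8 IEC-KO Mlkl-/- and lowest in FADD IEC-KO. Averaged over the 7 genes and set to 0 for the 10 floxed mice, the log2 level of CASP8 IEC-KO Mlkl-/- mice was 2.0 ± 0.34 (SD, n = 5), that of FADD IEC-KO Mlkl-/- mice 1.07 ± 0.40 and that of triple mutants 0.92 ± 0.14. FADD IEC-KO Zbp1-/- mice averaged 0.28 ± 0.52 and FADD IEC-KO RIPK3 IEC-KO mice 0.02 ± 0.35. With a single epithelial deletion the level was -0.04 ± 0.31 (CASP8 IEC-KO) and -0.38 ± 0.37 (FADD IEC-KO). Every mouse of the 3 genotypes without MLKL lay at 0.67 or above. Among the other 6 genotypes, the highest mouse was a FADD IEC-KO Zbp1-/- mouse at 0.77, within the range of the mice without MLKL, and the lowest a FADD IEC-KO mouse at -0.70. FADD IEC-KO replicate 1 stood at 0.24, and the other 4 mice of its group between -0.70 and -0.36.

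**Figure D1:**
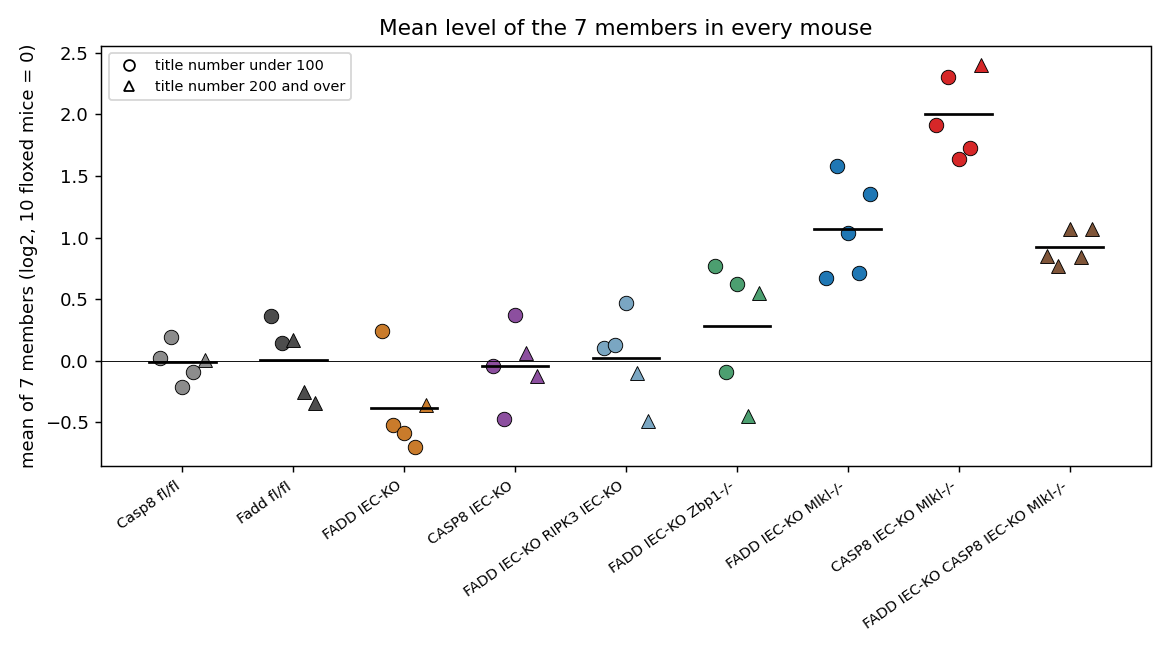
Mean log2 level of the 7 members in each mouse, with the 10 floxed mice set to 0. Points are mice (circles: title numbers under 100, triangles: 200 and over) and bars are group means, which run from -0.38 in FADD IEC-KO to 2.0 in CASP8 IEC-KO Mlkl-/-, and the 15 mice without MLKL lie at 0.67 or above.

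Loss of FADD or of caspase-8 from the epithelium alone was compared with the matching floxed mice. In neither comparison did any of the 7 members pass the test (limma over 45 arrays, Benjamini-Hochberg over 19494 genes, called at an adjusted p under 0.05). Among all genes, 3.73% were called for FADD IEC-KO versus Fadd fl/fl and 4.17% for CASP8 IEC-KO versus Casp8 fl/fl. These shares varied widely with the fit: the 727 genes called without FADD became 3 among mice with title numbers under 100, and the 813 without caspase-8 became 10 with the 2 groups fitted alone.

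Without FADD, the log2 differences were all below 0 and ran from -0.06 for Mx1 to -0.62 for Cmpk2. Cmpk2 read 8.61, 8.58, 8.28, 7.98 and 8.34 in the Fadd fl/fl mice and 8.08, 7.58, 7.56, 7.78 and 7.69 in the FADD IEC-KO mice. Its difference of -0.62 ± 0.20 (SE) had an adjusted p of 0.0707, and the 2 groups overlapped through FADD IEC-KO replicate 1 alone. Ifit3, whose human counterpart binds and stabilises IFIT1, differed by -0.61 ± 0.27 (adjusted p = 0.201). At an unadjusted p under 0.05 there were 2 members, and the exact permutation test over mice, with a smallest possible p of 0.0079, gave 1 (Cmpk2, p = 0.016). The share of all genes at these unadjusted thresholds is not given, here or below, so such counts have no background beside them. Without FADD IEC-KO replicate 1 the differences ran from -0.04 to -0.86 and still no member was called, with adjusted p = 0.0544 for Cmpk2 and 0.0586 for Ifit3. Of the 5 neutrophil markers 1 was called, the alarmin gene S100a8, higher in the same mice by 1.45 ± 0.28 (adjusted p = 0.00128). Its means were 2.95 in Fadd fl/fl and 4.40 in FADD IEC-KO, both below the lower quartile of gene means (4.96). The leukocyte markers averaged -0.50 on the scale where floxed mice are 0, and none of the 4 was called. Called as lower were 2 of 7 macrophage, 1 of 6 T cell, 2 of 5 endothelial and 1 of 5 smooth muscle markers. Among these were Eng (-0.74 ± 0.21, adjusted p = 0.0361) and Cd4 (-0.57 ± 0.15, adjusted p = 0.0282), and epithelial Krt20 was higher (0.23, adjusted p = 0.029). Without FADD IEC-KO replicate 1, no endothelial, smooth muscle or epithelial marker was called (Eng, adjusted p = 0.0564, and Krt20, 0.0554). In that fit 3 of 7 macrophage, 1 of 6 T cell and 1 of 4 leukocyte markers were lower. The leukocyte marker was Ptprc (-0.72, adjusted p = 0.0407). Of the 5 neutrophil markers 2 were higher, with S100a9 added (0.80, adjusted p = 0.0109). The part of these markers in the result was not tested.

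Without caspase-8, the differences ran from -0.15 ± 0.20 (Cmpk2, adjusted p = 0.742) to 0.04 ± 0.25 (Ifit2, adjusted p = 0.958), and no member reached an unadjusted p under 0.05 or an exact permutation p under 0.05. The 95% interval for Rsad2 ran from -0.47 to 0.54 and that for Ifit1 from -0.62 to 0.69. The groups overlapped for every member.

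MLKL loss was then set against the same epithelial deletion with MLKL present. In the caspase-8-deficient ileum all 7 members were higher in the group labelled CASP8 IEC-KO Mlkl-/-, between 2.09-fold (Mx1) and 6.02-fold (Rsad2), and for each of them the lowest Mlkl-/- mouse lay above the highest mouse with MLKL. Among all genes tested, 2.78% were called in this comparison, 1.59% as higher, and 2.22% were higher without overlap. The median of the 7 differences was 2.20, against -0.01 over all genes.

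Ifit3 read 7.68, 6.75, 7.62, 7.63 and 7.19 in CASP8 IEC-KO and 10.29, 9.86, 9.08, 9.66 and 9.98 in CASP8 IEC-KO Mlkl-/-. Its rise was 2.40 ± 0.27 (adjusted p = 5.8e-08, 5.28-fold), and the nearest mice of the 2 groups were 9.08 and 7.68. Ifit1, the IFIT that binds viral RNA lacking cap methylation, read 7.74, 6.97, 8.17, 7.87 and 7.37 against 9.77, 10.02, 9.69, 9.72 and 9.92. Its SD of 0.14 among the Mlkl-/- mice was the smallest of the 9 groups for this gene, and the rise was 2.20 ± 0.33 (adjusted p = 1.44e-05, 4.61-fold). Ifit2, an RNA-binding IFIT with a role in restricting neurotropic viruses in mice, read 5.29, 4.65, 6.0, 5.38 and 5.65 against 7.23, 7.86, 7.17, 7.32 and 8.0, a rise of 2.12 ± 0.25 (adjusted p = 2.36e-07).

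Mx2 read 5.83, 6.17, 6.66, 6.31 and 5.63 in CASP8 IEC-KO and 7.82, 8.87, 8.30, 7.96 and 9.12 in CASP8 IEC-KO Mlkl-/-, a rise of 2.29 ± 0.24 (adjusted p = 2.62e-08). Mx1 read 4.98, 5.38, 5.19, 5.06 and 5.13 against 5.99, 6.45, 5.83, 5.77 and 7.02. Replicate 5, the mouse with the highest Mx1, was also the highest for Mx2 and Ifit2, and it is the mouse of this group with a title number above 200. The rise of Mx1 was 1.06 ± 0.20 (adjusted p = 0.000486), the smallest of the 7. Rsad2 read 6.20, 6.05, 6.78, 6.36 and 6.38 against 8.94, 9.41, 8.50, 8.57 and 9.30 (adjusted p = 2.35e-09). Cmpk2, the gene beside it, read 8.29, 7.0, 8.45, 8.07 and 8.07 against 9.58, 9.93, 9.19, 9.39 and 9.69, a rise of 1.58 ± 0.20 (adjusted p = 8.56e-07, 3.0-fold). Without CASP8 IEC-KO replicate 1, whose Casp8 stayed nearest to the floxed mice, all 7 stayed called, with differences between 1.02 and 2.55. Among mice with title numbers under 100, 6 of the 7 were called, and Mx1 was not (0.82, adjusted p = 0.115).

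**Figure D2:**
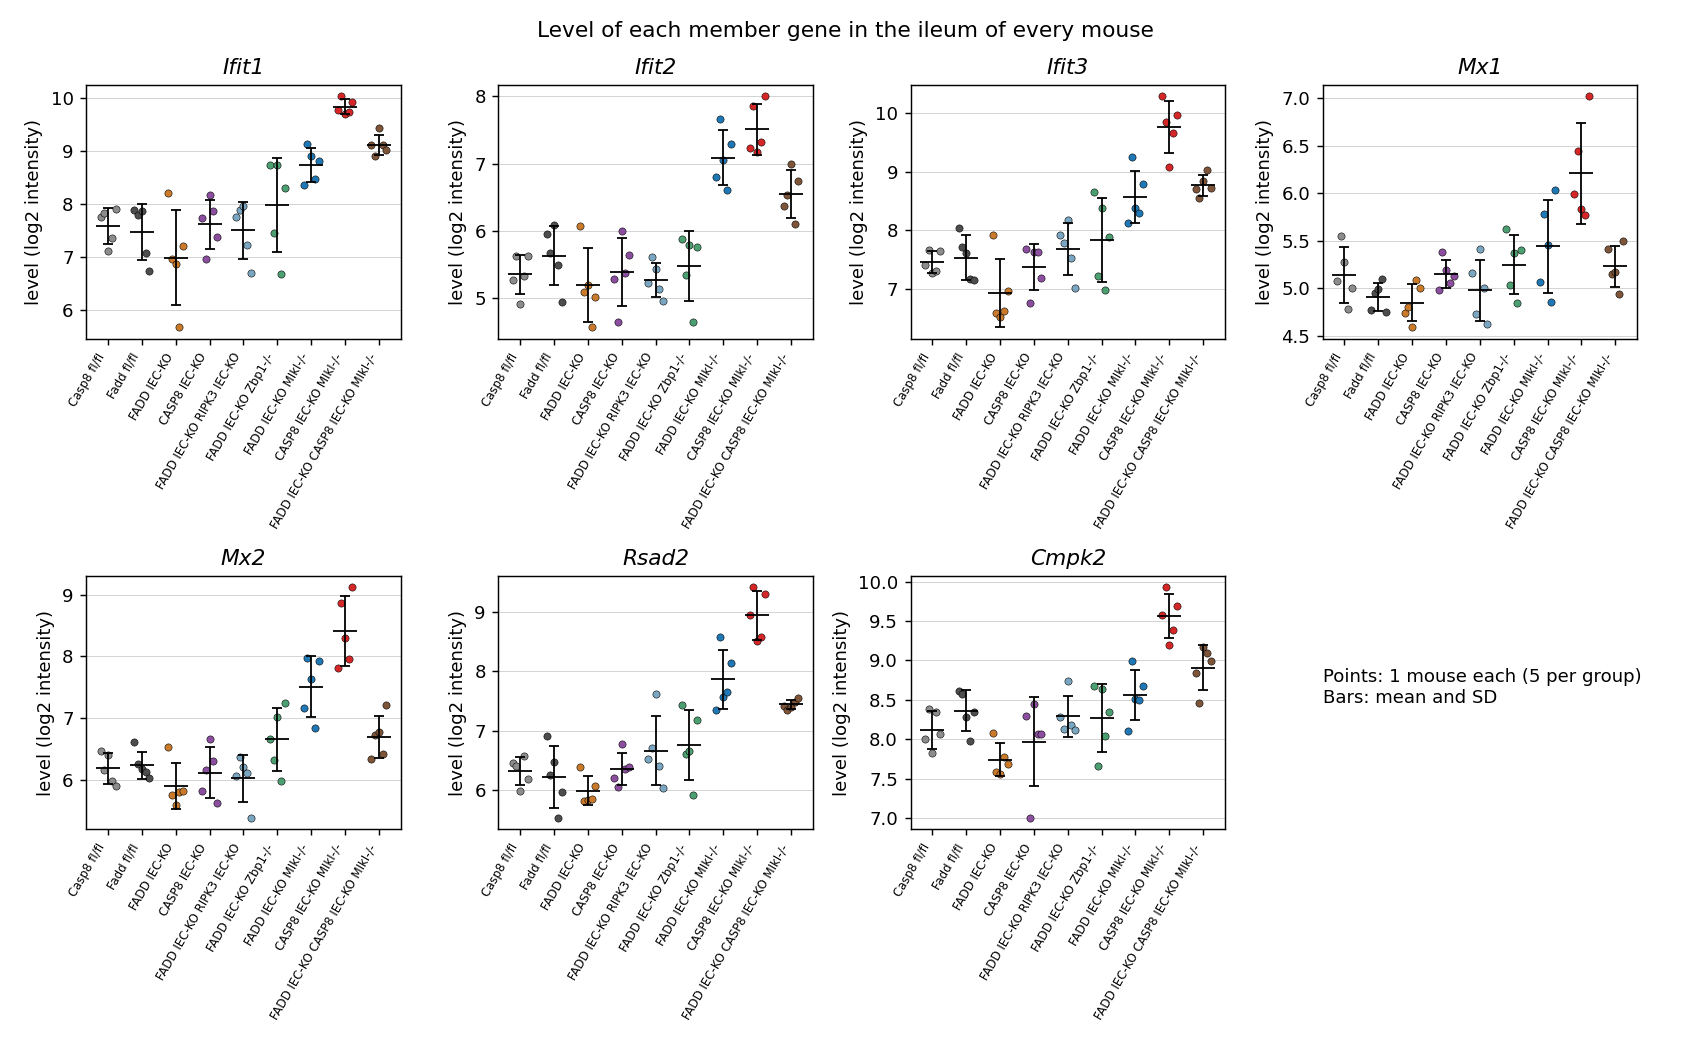
Log2 intensity of each member in every mouse, by genotype, with 1 point per mouse and bars for the mean and SD (n = 5). The vertical axes differ between genes, and in all 7 panels the CASP8 IEC-KO Mlkl-/- mean is the highest and the FADD IEC-KO mean the lowest.

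In the FADD-deficient ileum 6 of the 7 members rose with MLKL loss, between 1.77-fold (Cmpk2) and 3.73-fold (Ifit2), and for the same 6 the mice of the 2 groups did not overlap. Among all genes, 1.61% were called, 0.857% as higher, and 1.28% were higher without overlap. The median of the 7 differences was 1.65, against -0.01 over all genes. Mx1 was the member not called, at 0.60 ± 0.20 (adjusted p = 0.139).

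Ifit2 read 6.08, 5.10, 5.19, 4.57 and 5.02 in FADD IEC-KO and 6.81, 7.66, 7.06, 6.61 and 7.30 in FADD IEC-KO Mlkl-/-. It rose by 1.90 ± 0.25 (adjusted p = 3.74e-06), the largest difference of the 7 here. Rsad2 read 6.38, 5.81, 5.84, 5.85 and 6.07 against 7.35, 8.57, 7.57, 7.65 and 8.14, a rise of 1.87 ± 0.25 (adjusted p = 3.74e-06, 3.65-fold). Replicate 2 of the Mlkl-/- mice was the highest for Rsad2, Ifit1, Ifit2, Ifit3, Mx2 and Cmpk2. Ifit1 spread widely where MLKL was present, at 8.20, 6.96, 6.87, 5.68 and 7.21, and narrowly where it was absent, at 8.35, 9.12, 8.90, 8.46 and 8.81. Its rise of 1.74 ± 0.33 had an adjusted p of 0.000961, and the nearest mice of the 2 groups were 8.35 and 8.20. Ifit3 rose by 1.65 ± 0.27 (adjusted p = 0.000127) and Mx2 by 1.60 ± 0.24 (adjusted p = 3.96e-05). Cmpk2 read 8.10, 8.99, 8.51, 8.50 and 8.68 without MLKL and rose by 0.82 ± 0.20 (adjusted p = 0.0203).

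FADD IEC-KO replicate 1, the mouse with Fadd near the floxed level, was the highest of its group for all members but Mx1. Without it the differences of the 6 called members were larger, from 0.91 for Cmpk2 to 2.12 for Ifit2, and the same 6 were called. Among mice with title numbers under 100, Rsad2 (1.89, adjusted p = 0.000118), Ifit2 (1.86, adjusted p = 0.000148) and 3 others stayed called, and Cmpk2 was not (0.81, adjusted p = 0.156). S100a8 and Retnlg, 2 of the 5 neutrophil markers, were lower with MLKL loss by 1.25 and 0.70 (adjusted p = 0.00675 and 0.0376), that is, in the direction opposite to the members. Their means, 4.40 and 4.72 in FADD IEC-KO and 3.15 and 4.02 without MLKL, lay below the lower quartile of gene means (4.96). S100a9 (-0.61), Csf3r (-0.21) and Cxcr2 (-0.10) were not called. Without FADD IEC-KO replicate 1, S100a9 was called too (-0.78, adjusted p = 0.0144). By limma, no gene of the 8 epithelial, 4 leukocyte, 7 macrophage, 6 plasmacytoid dendritic cell, 6 T cell or 6 B and plasma cell markers was called in either MLKL comparison. At an unadjusted p under 0.05 there were 2 and 3 leukocyte markers without FADD and without caspase-8, 0 and 5 T cell markers, and 4 and 0 B and plasma cell markers. The median differences were 0.39 and 0.44 for the leukocyte list and 0.30 and 0.58 for the T cell list. Siglech, the defining marker of plasmacytoid dendritic cells, lay between 4.67 and 5.28 in all 45 mice. The part of cell composition in the members' levels was not tested.

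**Figure D3:**
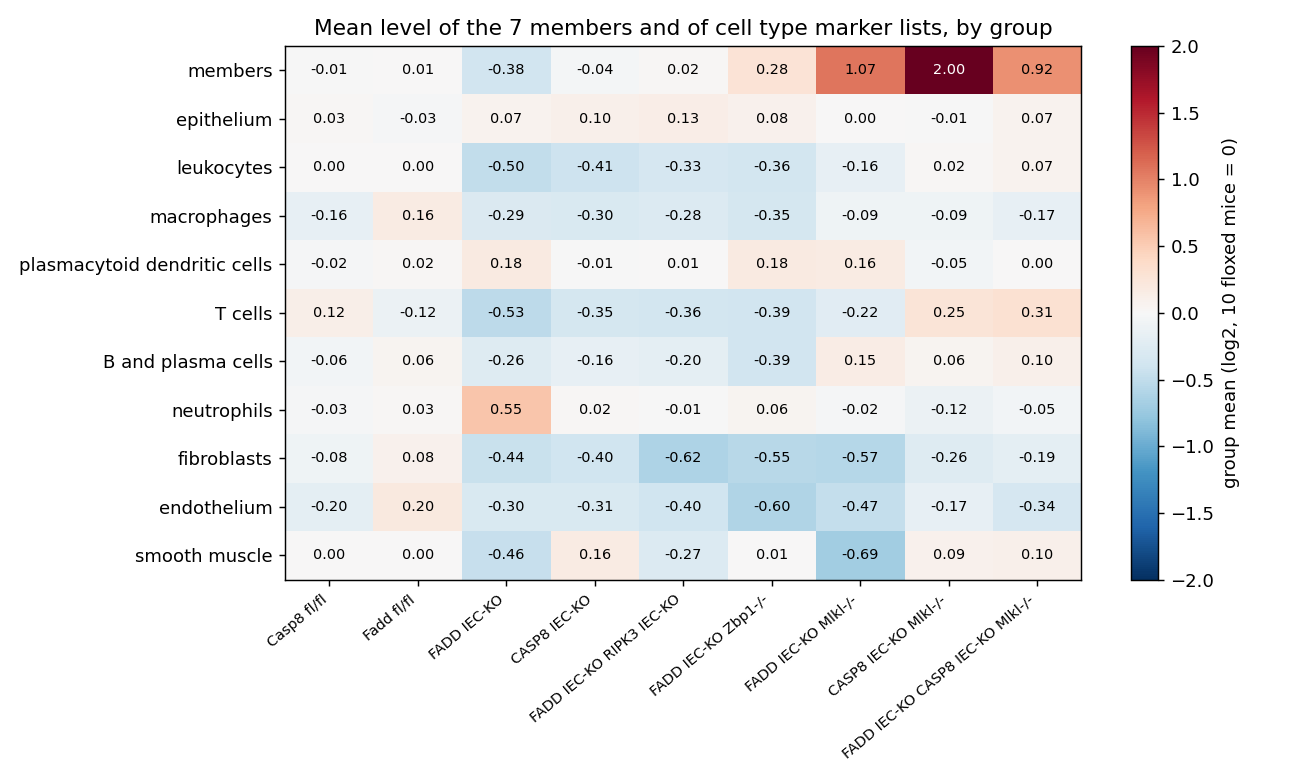
Mean log2 level of the 7 members and of marker lists for 10 cell types, by genotype, with the 10 floxed mice set to 0 (colour and number give the same value). The members span -0.38 to 2.0, the epithelial list -0.03 to 0.13 and the leukocyte list -0.50 to 0.07.

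The 2 rises were compared with each other in 1 interaction term. All 7 terms were below 0, that is, smaller rises without FADD than without caspase-8, from -0.22 ± 0.36 for Ifit2 to -0.76 ± 0.29 for Cmpk2. None was called (adjusted p = 0.56 for Cmpk2, and 0.782 or above for the other 6), 2 had an unadjusted p under 0.05, and 0.0564% of all genes were called. Without FADD IEC-KO replicate 1 the terms were nearer 0 for all members but Mx1 (-0.49), at -0.16 for Ifit1, -0.5 for Ifit3 and 0.0 to 2 decimals for Ifit2, and the largest was -0.68 for Cmpk2 (adjusted p = 0.705). These tests leave the difference between the 2 rises undetermined for each member, with an SE of up to 0.46 (Ifit1).

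The direct comparison of CASP8 IEC-KO Mlkl-/- with FADD IEC-KO Mlkl-/- mice was added after the levels were seen. In it 5 members were higher without caspase-8, against 2.26% of all genes called and 1.54% called as higher. These were Ifit3 (1.20 ± 0.27, adjusted p = 0.00937), Rsad2 (1.09 ± 0.25, adjusted p = 0.011), Cmpk2 (1.0 ± 0.20, adjusted p = 0.0034), Mx2 (0.91 ± 0.24, adjusted p = 0.0378) and Mx1 (0.77 ± 0.20, adjusted p = 0.0234). Ifit1 was higher in every mouse of the caspase-8 group, but its difference of 1.10 ± 0.33 had an adjusted p of 0.0608. Cmpk2 was also higher without overlap, against 4.09% of all genes. Ifit2 differed by 0.43 ± 0.25 (adjusted p = 0.471). The count depended on single mice: it was 2 without FADD IEC-KO Mlkl-/- replicate 1, 3 without replicate 4 of that group or without replicate 2 or 5 of CASP8 IEC-KO Mlkl-/-, and 3 among mice with title numbers under 100. Cnn1, a smooth muscle gene, was higher in the same direction by 1.21 ± 0.23 (adjusted p = 0.00164), and 4 of the 5 smooth muscle markers were called. Their part in the result was not tested.

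In the triple mutant, which lacks FADD in addition to caspase-8 and MLKL, 5 members were lower than in CASP8 IEC-KO Mlkl-/- and all 7 were lower without overlap, against 3.1% of all genes called, 1.07% called as lower and 2.32% lower without overlap. Mx2 fell most, by 1.71 ± 0.24 on the log2 scale (adjusted p = 5.51e-05), to 6.35, 6.73, 6.78, 6.43 and 7.22. These values overlapped those of the Casp8 fl/fl mice, at 6.47, 6.17, 6.41, 5.99 and 5.90. Rsad2 fell by 1.51 ± 0.25 (adjusted p = 0.00049), to 7.42, 7.35, 7.39, 7.48 and 7.54, the narrowest spread of any member in any group (SD 0.08). Ifit3, Mx1 and Ifit2 fell by 1.01 ± 0.27 (adjusted p = 0.0268), 0.98 ± 0.20 (adjusted p = 0.00313) and 0.96 ± 0.25 (adjusted p = 0.0239). Over all genes 397 were higher and 208 lower, and with quantile normalization 323 and 335. Ifit1 and Cmpk2 differed by -0.71 ± 0.33 (adjusted p = 0.267) and -0.64 ± 0.20 (adjusted p = 0.0683).

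With the title number series as a covariate, 3 of the 5 stayed called, Mx2 (-1.60, adjusted p = 0.00174), Rsad2 (-1.32, adjusted p = 0.0142) and Mx1 (-1.0, adjusted p = 0.0174). No triple mutant had a number under 100 and 1 CASP8 IEC-KO Mlkl-/- mouse had one of 200 or over, so a fit within the high series, added after the data were seen, took that lone mouse to vary like the other groups. Over its 17 mice in 8 groups the differences ran from -0.78 ± 0.22 for Cmpk2 to -2.42 ± 0.41 for Mx2. By limma 0 members were called, with adjusted p = 0.0522 for Mx1 and 0.169 for Mx2, and 6 had an unadjusted p under 0.05. That 1 mouse had the highest Ifit2, Mx1 and Mx2 of its group. Leaving out triple mutant replicate 1, or CASP8 IEC-KO Mlkl-/- replicate 2 or 5, also left 3 members called.

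The triple mutant was also compared with FADD IEC-KO Mlkl-/-. Mx2 was lower in the triple mutant than in FADD IEC-KO Mlkl-/- by 0.80 ± 0.24 (adjusted p = 0.0332), the 1 member called, against 7.86% of all genes called and 2.35% called as lower. Over all genes 1074 were higher and 459 lower, and with quantile normalization 866 and 901. The other 6 differences ran from -0.54 ± 0.25 for Ifit2 (adjusted p = 0.203) to 0.38 ± 0.33 for Ifit1 (adjusted p = 0.543), with Ifit1, Ifit3 and Cmpk2 above 0 and Ifit2, Mx1 and Rsad2 below. The call for Mx2 was lost in 7 of the 10 fits that left out 1 mouse and with the title number series as a covariate (-0.67, adjusted p = 0.193). Each of these 2 groups lay in its own title number series, so series and genotype cannot be told apart. All 5 smooth muscle markers were higher in the triple mutant in this comparison, from Acta2 at 0.47 ± 0.15 (adjusted p = 0.0418) to Cnn1 at 0.97 ± 0.23 (adjusted p = 0.00518), and their part in the result was not tested.

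**Figure D4:**
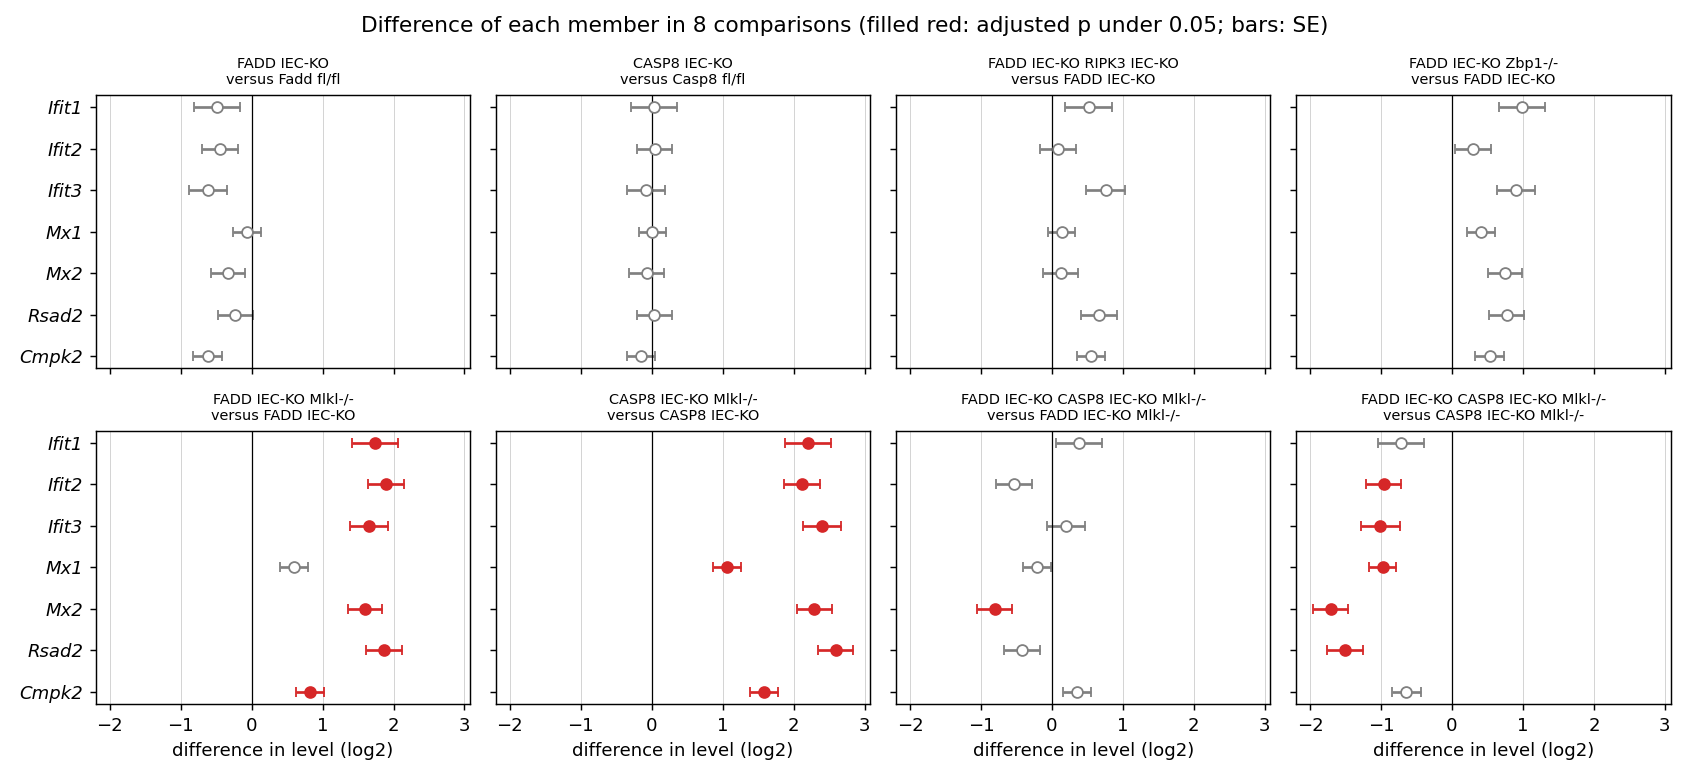
Log2 difference of each member in 8 comparisons, with bars for the SE, and red points where the adjusted p was under 0.05. All 7 points are red for MLKL loss without caspase-8, 6 for MLKL loss without FADD and none in the 4 comparisons of the upper row.

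ZBP1 and RIPK3 act upstream of MLKL, and their loss in the FADD-deficient ileum was compared with FADD IEC-KO in the same way. With Zbp1-/-, no member was called among 3.32% of all genes called. The differences were all above 0, from 0.29 ± 0.25 for Ifit2 (adjusted p = 0.596) to 0.99 ± 0.33 for Ifit1 (adjusted p = 0.0803). Ifit3 read 8.66, 7.22, 8.38, 6.98 and 7.89 in FADD IEC-KO Zbp1-/- and 7.91, 6.59, 6.52, 6.62 and 6.96 in FADD IEC-KO, a difference of 0.91 ± 0.27 (adjusted p = 0.0515). The Zbp1-/- mice were uneven, since replicates 1, 3 and 5 were high and replicates 2 and 4 low for Ifit1, Ifit3, Mx2 and Cmpk2. At an unadjusted p under 0.05 there were 6 members, and the exact permutation test gave 3, again with no share of all genes at these thresholds. Calls depended on single mice: without FADD IEC-KO replicate 1, Ifit1 (1.30, adjusted p = 0.0192), Ifit3 (1.15, adjusted p = 0.013) and Mx2 (0.90, adjusted p = 0.0375) were called, without Zbp1-/- replicate 4 there were 4 calls, and without Zbp1-/- replicate 2 there were 2. With the title number series as a covariate 3 were called, and among mice with numbers under 100 none was (Ifit1 1.37, adjusted p = 0.218). Beyond the members, 9 of 18 other antiviral effectors, 2 of 9 signalling genes and 1 of 4 feedback genes were called as higher with Zbp1-/-. Among all 19494 genes 167 were. Isg15, counted as effector and feedback gene, was higher by 1.49 ± 0.28 (adjusted p = 0.00264). Against Fadd fl/fl it was higher by 1.20 ± 0.28 (adjusted p = 0.00349). Without FADD IEC-KO replicate 1 these counts were 10, 4 and 2, and 174 among all genes. S100a8 was lower with Zbp1-/- by 1.33 ± 0.28 (adjusted p = 0.00541), the 1 of the 5 neutrophil markers called. Its means, 3.07 and 4.40, lay below the lower quartile of gene means (4.96).

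With RIPK3 IEC-KO, no member was called among 1.55% of all genes called, 3 had an unadjusted p under 0.05, and the exact permutation test gave 3. The differences ran from 0.09 ± 0.25 for Ifit2 (adjusted p = 0.927) to 0.76 ± 0.27 for Ifit3 (adjusted p = 0.155). Cmpk2, at 8.28, 8.13, 8.74, 8.18 and 8.12, lay above all 5 FADD IEC-KO mice, the highest of which was 8.08, with a difference of 0.55 ± 0.20 (adjusted p = 0.167). Among all genes 1.31% were higher without overlap here. Without FADD IEC-KO replicate 1, Ifit3 was called (1.01, adjusted p = 0.0366). Of the 5 neutrophil markers, S100a8 (-1.01 ± 0.28, adjusted p = 0.0482) and S100a9 (-0.83 ± 0.19, adjusted p = 0.0172) were called as lower with all mice. The S100a8 means, 3.40 and 4.40, lay below the lower quartile of gene means (4.96). Without FADD IEC-KO replicate 1, S100a8 was not called (adjusted p = 0.067) and Retnlg was (-0.79, adjusted p = 0.021). The part of these genes in the result was not tested. All 5 mice of the RIPK3 IEC-KO group had high levels of Y-linked genes, and the other groups held 2 or 3 such mice each. The part of sex was not separated from genotype here, and with the index of Y-linked genes as a covariate no member was called in this comparison.

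The 3 second mutations were also set against each other. FADD IEC-KO Mlkl-/- mice had higher levels than FADD IEC-KO Zbp1-/- mice for 3 members, against 4.12% of all genes called, 2.36% called as higher and 2.44% higher without overlap. They were Ifit2 (1.60 ± 0.25, adjusted p = 9.52e-05, without overlap), Rsad2 (1.10 ± 0.25, adjusted p = 0.00692) and Mx2 (0.85 ± 0.24, adjusted p = 0.0356). Against FADD IEC-KO RIPK3 IEC-KO mice 5 members were higher, with 4.96% of all genes called, 2.04% called as higher and 3.1% higher without overlap. Ifit2 again had the largest difference, at 1.81 ± 0.25 (adjusted p = 9.17e-06), followed by Mx2 (1.47 ± 0.24, adjusted p = 0.000157), Ifit1 (1.22 ± 0.33, adjusted p = 0.0201), Rsad2 (1.20 ± 0.25, adjusted p = 0.00234) and Ifit3 (0.90 ± 0.27, adjusted p = 0.0427). Mx1 and Cmpk2 passed in neither. Among mice with title numbers under 100, Ifit2 alone stayed called against Zbp1-/- (1.41, adjusted p = 0.0146), and Ifit2 (1.66, adjusted p = 0.00239) and Mx2 (1.28, adjusted p = 0.0128) against RIPK3 IEC-KO. These comparisons share the FADD IEC-KO Mlkl-/- mice. Against Zbp1-/-, all 5 smooth muscle markers were lower in FADD IEC-KO Mlkl-/-, from Acta2 at -0.53 ± 0.15 (adjusted p = 0.0309) to Des at -0.85 ± 0.25 (adjusted p = 0.0378). Of the 6 B and plasma cell markers, Cd79a (0.72 ± 0.20, adjusted p = 0.0315) and Mzb1 (1.13 ± 0.29, adjusted p = 0.0178) were higher. Against RIPK3 IEC-KO, the epithelial marker Vil1 was lower by 0.27 ± 0.07 (adjusted p = 0.0173). The part of these markers in the results was not tested.

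Against floxed mice, the genotypes without MLKL were again the ones with called members. All 7 were higher in CASP8 IEC-KO Mlkl-/- than in Casp8 fl/fl, without overlap, with 1.09% of all genes called, 0.775% called as higher and 1.99% higher without overlap, and the differences ran from 1.07 ± 0.20 for Mx1 to 2.63 ± 0.25 for Rsad2. In FADD IEC-KO Mlkl-/- 5 were higher than in Fadd fl/fl, with 10.5% of all genes called, 4.12% called as higher and 4.23% higher without overlap. Rsad2 (1.64 ± 0.25, adjusted p = 2.61e-05) and Ifit2 (1.45 ± 0.25, adjusted p = 0.000181) led, whereas Mx1 (0.53 ± 0.20, adjusted p = 0.0754) and Cmpk2 (0.20 ± 0.20, adjusted p = 0.612) did not pass. With title numbers under 100 alone, which leaves 2 floxed mice, Ifit2 (1.28, adjusted p = 0.0438) and Rsad2 (1.29, adjusted p = 0.0401) were called. Markers of non-epithelial tissue were lower in the same FADD IEC-KO Mlkl-/- mice, with 3 of 5 for smooth muscle, 4 of 5 for endothelium and 4 of 5 for fibroblasts called. Among them were Cnn1 (-1.15 ± 0.23, adjusted p = 0.000644), the endothelial gene Eng (-1.04 ± 0.21, adjusted p = 0.00098) and the collagen gene Col3a1 (-0.67 ± 0.16, adjusted p = 0.00576), and their part in the result was not tested. The triple mutant exceeded the 10 floxed mice for 5 members, with 3.69% of all genes called, 2.15% called as higher and 1.21% higher without overlap. Over all genes 419 were higher and 301 lower, and with quantile normalization 306 and 446. Ifit1 led at 1.58 ± 0.28 (adjusted p = 0.000514), followed by Ifit3 (1.27 ± 0.23), Rsad2 (1.17 ± 0.22), Ifit2 (1.06 ± 0.22) and Cmpk2 (0.67 ± 0.17, adjusted p = 0.0224), while Mx1 (0.21 ± 0.17, adjusted p = 0.558) and Mx2 (0.49 ± 0.21, adjusted p = 0.205) did not pass. Among mice with title numbers of 200 and over, in the same added fit with 1 Casp8 fl/fl mouse, Ifit3 (1.29, adjusted p = 0.0172), Rsad2 (1.35, adjusted p = 0.0269) and Cmpk2 (0.78, adjusted p = 0.0373) were called. The endothelial marker Tie1 was lower by 0.35 ± 0.10 in the triple mutant (adjusted p = 0.0265) and Vil1 higher by 0.21 ± 0.06 (adjusted p = 0.0394), and their part was not tested.

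No member was called for FADD IEC-KO Zbp1-/- against Fadd fl/fl, where 11.9% of all genes were, or for FADD IEC-KO RIPK3 IEC-KO against Fadd fl/fl, where 1.23% were. With limma, 1 member in the Zbp1-/- comparison and 0 in the other had an unadjusted p under 0.05. The exact permutation test gave 0 members in each comparison. The 2 floxed groups did not differ by the test for any member (limma, 0.00513% of all genes called, 0 members at an unadjusted p under 0.05 and 0 by the exact permutation test), with differences between -0.23 ± 0.20 for Mx1 and 0.28 ± 0.25 for Ifit2.

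Over the 36 pairs of genotypes, Ifit2 and Ifit3 each differed by the test in 19, Rsad2 in 18, Ifit1 in 17, Mx2 in 16, Cmpk2 in 12 and Mx1 in 8. In the pairs described above, the share of all genes called ran from 0.00513% to 11.9%. No share of all genes over the 36 pairs is given, and the pairs share the same 9 groups, so these counts describe the members only. The members fell into 2 orders at the top. For Ifit2, Mx1, Mx2 and Rsad2, CASP8 IEC-KO Mlkl-/- was followed by FADD IEC-KO Mlkl-/-, and for Ifit1, Ifit3 and Cmpk2 by the triple mutant. Neighbours in the order seldom differed by the test. For Ifit3 the first and second places did (gap 1.01, adjusted p = 0.0268), as did those of Mx1 (0.77, adjusted p = 0.0234), Mx2 (0.91, adjusted p = 0.0378) and Rsad2 (1.09, adjusted p = 0.011). FADD IEC-KO Mlkl-/- and the triple mutant, next in the order for Mx2, also differed (0.80, adjusted p = 0.0332), as did the triple mutant and Fadd fl/fl for Ifit2 (0.92, adjusted p = 0.0345). Further down, no neighbours differed for any member, with Ifit1 running from 7.98 in FADD IEC-KO Zbp1-/- to 6.99 in FADD IEC-KO and Mx1 from 5.23 in the triple mutant to 4.85. Ifit1 and Cmpk2 had no pair of neighbours that differed.

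The members moved together from mouse to mouse. Over the 45 arrays, the 21 pairs of members had Pearson correlations between 0.69 (Mx1 and Cmpk2) and 0.95 (Ifit1 and Ifit3), with a median of 0.86. After each group's mean was subtracted they lay between 0.27 (Ifit1 and Mx1) and 0.83 (Ifit1 with Ifit2 and with Ifit3), with a median of 0.62. Mx1, the member with the lowest median level, was the least like the rest, at 0.79 with the mean of the other 6, and Ifit3 and Rsad2 the most, at 0.96. All points share arrays, tissue pieces and genotype groups, so these values describe the mice and carry no test.

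Outside the 7, the genes whose pattern over the 45 arrays was nearest to the members' mean were Ifit3b (r = 0.97), Xaf1 (0.968), Usp18 (0.964), Trim30a (0.961), Dhx58 (0.961) and Oas2 (0.961). After group means were subtracted the same genes had r = 0.862, 0.912, 0.897, 0.837, 0.769 and 0.844. Of the 19487 other genes, 29 had r above 0.9 over all arrays, and 1 did after group means were subtracted. The genes next to the members in the genome did not follow them: the 13 measured neighbours of the 3 loci had r between -0.446 (Lipa, beside the Ifit cluster) and 0.308 (Fam3b, which lies between Mx1 and Mx2). Lipa, which encodes lysosomal acid lipase, was lower with MLKL loss by 0.43 ± 0.11 without FADD (adjusted p = 0.0309) and by 0.41 ± 0.11 without caspase-8 (adjusted p = 0.0296), opposite to the Ifit genes beside it, and no other neighbour was called in these 2 comparisons.

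The Ifit cluster holds 3 further measured genes. Ifit3b, a near copy of Ifit3 whose probe may share signal with it, rose with MLKL loss by 2.43 ± 0.26 without caspase-8 (adjusted p = 3.12e-08) and by 1.59 ± 0.26 without FADD (adjusted p = 0.000176), and was 1.13 ± 0.26 lower in the triple mutant than in CASP8 IEC-KO Mlkl-/- (adjusted p = 0.0102). Its promoter window held 2 matches with the same letters as those of Ifit3, at -188 and -154. Ifit1bl1 rose by 1.63 ± 0.41 without caspase-8 (adjusted p = 0.0176), and its difference without FADD was 1.21 ± 0.41 (adjusted p = 0.171). In FADD IEC-KO mice it read 10.97, 10.07, 10.38, 7.63 and 10.26, so 1 mouse set most of the spread. Ifit1bl2, which shares its promoter region with Ifit1, rose by 1.11 ± 0.21 without caspase-8 (adjusted p = 0.000743) and stood at 0.29 ± 0.21 without FADD (adjusted p = 0.672), where Ifit1 itself rose by 1.74.

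The rest of the pathway is given from the cytokines down, for MLKL loss and the triple mutant, with counts for Zbp1-/- given above. Among all genes, 0.857% were called as higher with MLKL loss without FADD and 1.59% without caspase-8. In the triple mutant against CASP8 IEC-KO Mlkl-/-, 1.07% were called as lower. These shares stand beside the counts of every list below. Of the 19 interferon genes measured, none was called by limma with MLKL loss in either setting, and 1 in each had an unadjusted p under 0.05. The median difference was 0.08 without FADD and 0.04 without caspase-8. Ifnb1, the interferon beta gene, differed by 0.11 ± 0.13 (adjusted p = 0.822) and the type III gene Ifnl3 by 0.09 ± 0.08 (adjusted p = 0.769) without caspase-8. Without FADD these differences were 0.01 and 0.08. Ifnb1 lay between 4.84 and 5.71 and Ifng between 3.73 and 5.28 over all 45 mice, levels in the lower part of the array's range. In the triple mutant against CASP8 IEC-KO Mlkl-/-, Ifnk was lower by 0.53 ± 0.14 (adjusted p = 0.0199). It lay between 2.96 and 4.39 over all 45 mice, below the lower quartile of gene means (4.96). Of the 6 receptor chains, Ifnlr1, the type III interferon receptor chain found on epithelium, fell with MLKL loss without FADD, by 0.79 ± 0.11 (adjusted p = 1.62e-05), opposite to the members. Without caspase-8 its difference was -0.27 ± 0.11 (adjusted p = 0.279), and Ifnar1 and Ifnar2, the type I receptor chains, lay between 0.03 and 0.18 in both.

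Of the 9 signalling genes, the same 3 rose in both settings. Irf7, the interferon-induced transcription factor of the second wave, rose by 1.03 ± 0.17 without FADD (adjusted p = 0.000126) and by 1.35 ± 0.17 without caspase-8 (adjusted p = 6.18e-07). Stat2 rose by 0.82 ± 0.17 (adjusted p = 0.00258) and 0.96 ± 0.17 (adjusted p = 0.00021), and Irf9 by 0.51 ± 0.11 (adjusted p = 0.00478) and 0.50 ± 0.11 (adjusted p = 0.00358). Jak1, Tyk2 and Irf3 stayed between -0.13 and 0.15 in both and were not called. In the triple mutant none of the 9 was lower than in CASP8 IEC-KO Mlkl-/- by the test (1 at an unadjusted p under 0.05), where 5 members were. Irf7 differed there by 0.12 ± 0.17 (adjusted p = 0.823) and Irf9 by -0.04 ± 0.11 (adjusted p = 0.912), and Irf7 was 0.58 ± 0.17 higher than in FADD IEC-KO Mlkl-/- (adjusted p = 0.026).

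Of 18 other antiviral effectors, 13 rose with MLKL loss without FADD and 14 without caspase-8, and none fell in either. Among all genes 0.857% and 1.59% were called as higher. The medians were 1.10 and 1.25, below the members' 1.65 and 2.20. Isg15, the ubiquitin-like modifier, rose by 2.37 ± 0.28 (adjusted p = 3.88e-07) without FADD and 2.21 ± 0.28 (adjusted p = 8.59e-07) without caspase-8. Oas2, which makes the 2′-5′ oligoadenylates that activate RNase L, rose by 2.25 ± 0.20 and 2.54 ± 0.20. Rtp4 rose by 2.15 ± 0.23 without FADD and 1.91 ± 0.23 without caspase-8, and Bst2, which encodes tetherin, by 1.80 ± 0.23 and 1.78 ± 0.23. Ifitm1, Isg20 and Apobec3, also counted among antiviral effectors, were not called in either and lay between -0.31 and 0.12, and Ifitm3, which blocks virus entry, was at 0.82 ± 0.23 (adjusted p = 0.0503) and 0.59 ± 0.23 (adjusted p = 0.2). In the triple mutant against CASP8 IEC-KO Mlkl-/-, 6 of the 18 were lower with a median of -0.45, against -0.98 for the members. Isg15 fell there by 0.98 ± 0.28 (adjusted p = 0.0414) and Oas1a by 0.76 ± 0.19 (adjusted p = 0.018).

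Of 14 nucleic acid sensing genes, 5 rose without FADD and 8 without caspase-8. Dhx58, which encodes the RNA sensor LGP2, rose by 1.47 ± 0.21 (adjusted p = 9.02e-06) and 1.90 ± 0.21 (adjusted p = 3.12e-08), and Ddx58, which encodes RIG-I, by 1.06 ± 0.15 and 1.19 ± 0.15. Cgas, Sting1 and Mavs stayed between -0.13 and 0.25 and were not called. In the triple mutant against CASP8 IEC-KO Mlkl-/-, Dhx58 was lower by 1.02 ± 0.21 (adjusted p = 0.00361), Eif2ak2, the kinase PKR, was lower by 0.70 ± 0.12 (adjusted p = 0.000925), and Mavs was higher by 0.47 ± 0.09 (adjusted p = 0.00314). Of 15 genes best known as targets of interferon gamma, 5 rose without FADD and 10 without caspase-8, led by Ido1 (1.47 ± 0.38, adjusted p = 0.0299) and Igtp (2.15 ± 0.53, adjusted p = 0.0137). None of the 15 was called in the triple mutant against CASP8 IEC-KO Mlkl-/- by limma (3 at an unadjusted p under 0.05). Among 4 feedback genes, Isg15 and Usp18 rose in both settings, and Socs1 and Socs3 were called in neither, at 0.37 and 0.09 without FADD and 0.33 and -0.20 without caspase-8. With FADD IEC-KO replicate 1 left out, the pathway genes called with MLKL loss without FADD all stayed called, and Zbp1 (1.21, adjusted p = 0.0156) among the sensing genes and Cxcl9 (1.88, adjusted p = 0.00952) among the interferon gamma targets were added.

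**Figure D5:**
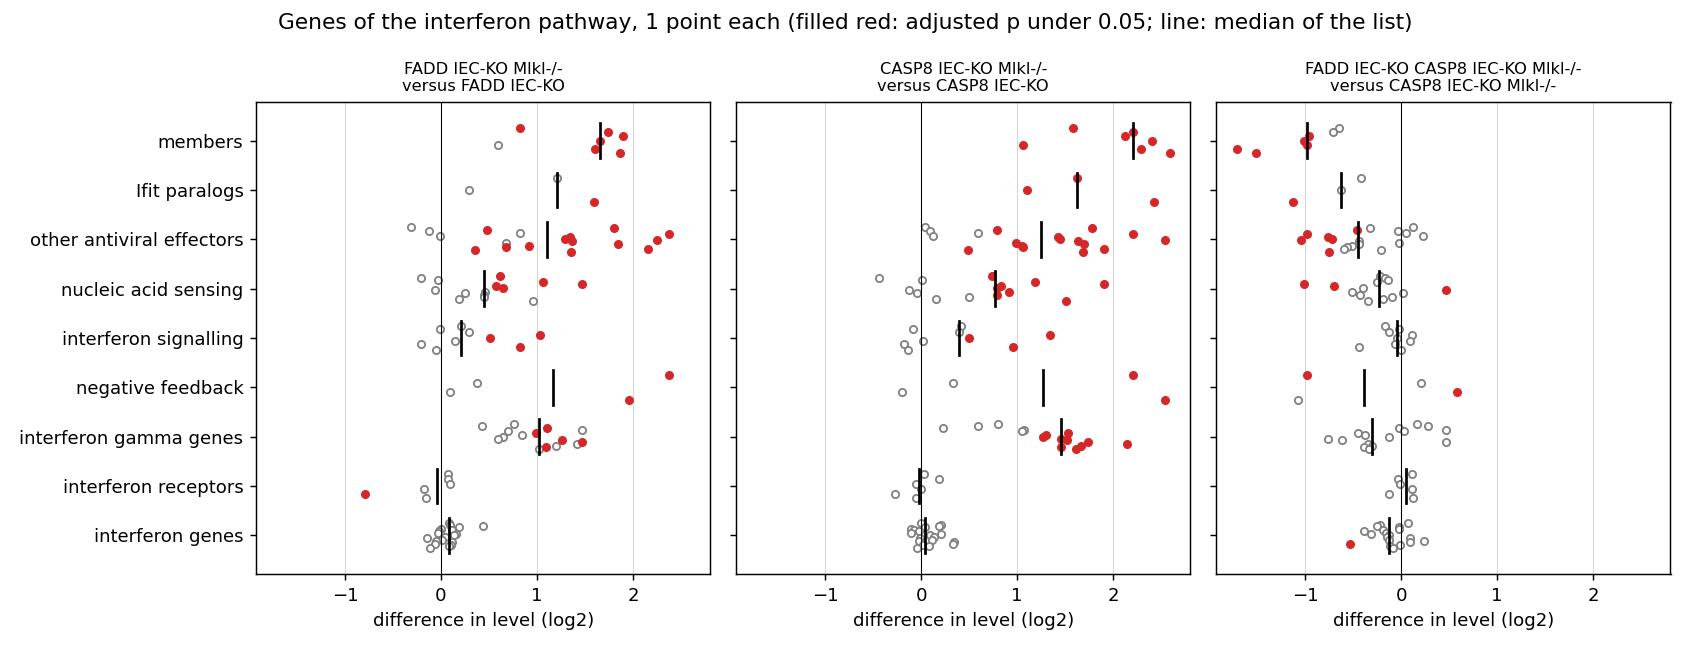
Log2 difference of each gene of the interferon pathway lists in 3 comparisons, with 1 point per gene, red where the adjusted p was under 0.05, and a line at the median of each list. The member medians are 1.65, 2.20 and -0.98, and the 19 interferon genes have medians of 0.08, 0.04 and -0.12.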

How the data were processed

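RNA of whole ileum was hybridised to Affymetrix whole-transcript arrays, and the deposited values are log2 summary intensities per probe set, which the authors made, as the submitters' processing notes name the tools, with Transcriptome Analysis Console and Affymetrix Expression Console. The summarisation method and tool versions were not given in the sources used here. Of 22142 probe sets, 19527 had 1 gene symbol and 2615 (11.8%) had none. The probe set of the highest mean was kept for the 33 genes with several, leaving 19494 genes, and no filter on dim genes was applied. The number of arrays limits the precision.

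With limma 3.58.1 in R 4.3.3, 1 mean per genotype was fitted over all 45 arrays (36 residual degrees of freedom), with eBayes and Benjamini-Hochberg adjustment over all genes in each comparison. SE values are moderated, and ± in group means is the SD. Nothing in the labels pairs mice, and replicate numbers follow accession order. Each limma p-value of the main fit weighs a difference of group means against the moderated spread between single mice, estimated over all 9 groups. The exact permutation test is two-sided and unadjusted.

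The 7 members, the lists and the tests were chosen with earlier results of these data known. Named are the members, Ifit paralogs, locus neighbours, the 3 called genes of largest change per list, the 6 genes most like the members, and the targeted genes. Other genes named were chosen after their values were seen, as was the comparison of CASP8 IEC-KO Mlkl-/- with FADD IEC-KO Mlkl-/-. Promoter sequences are RefSeq's for GRCm38.p6. Alternatives were the groups compared alone, title number series as a covariate or a restriction, quantile or median scaling, array weights, a filter on dim genes, an index of 3 Y-linked genes as a covariate, and each mouse left out. The fit was tested on simulated data.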

Additional observations from a re-analysis of the deposited data

Results flagged for a closer look

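Of 63 sets of 5 mice, 1 for each member in each genotype, 3 held a mouse far from the other 4 by Dixon's test, and chance flags about 1 in 20. Mx2 in FADD IEC-KO replicate 1 was 6.54, against 5.60 to 5.83 in the other mice of its group, and this is the mouse whose Fadd level was near that of the floxed mice. Cmpk2 in CASP8 IEC-KO replicate 2 was 7.0, against 8.07 to 8.45. Cmpk2 in FADD IEC-KO RIPK3 IEC-KO replicate 3 was 8.74, against 8.12 to 8.28.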

How the results depend on the processing

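The number of called members stayed within 1.5 times its value in all fits run for both comparisons of MLKL loss (6 without FADD, 5 to 7 in all fits, and 7 without caspase-8, 6 to 7) and for CASP8 IEC-KO Mlkl-/- versus Casp8 fl/fl (7, 6 to 7). It stayed at 0 for CASP8 IEC-KO versus Casp8 fl/fl, FADD IEC-KO RIPK3 IEC-KO versus Fadd fl/fl, the floxed groups and the interaction. No called value changed sign.

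For FADD IEC-KO versus Fadd fl/fl, array weights gave 1 call and the exact permutation test 1, against 0. For FADD IEC-KO Zbp1-/- versus FADD IEC-KO, 0 calls became 3 with the title number series as a covariate, 1 with quantile normalization, 1 with the filter on dim genes, 1 with the index of Y-linked genes, 3 by the exact permutation test, and 0 to 4 with 1 mouse left out. For FADD IEC-KO RIPK3 IEC-KO versus FADD IEC-KO, 0 became 3 by the exact permutation test and 0 to 1 with 1 mouse left out. For the triple mutant versus FADD IEC-KO Mlkl-/-, 1 became 0 with the series as a covariate and 0 to 1 with 1 mouse left out. For the triple mutant versus CASP8 IEC-KO Mlkl-/-, 5 became 3 with the series as a covariate, 0 in the added fit of mice with title numbers of 200 and over, and 3 to 5 with 1 mouse left out. For the triple mutant versus floxed mice, 5 became 3 in that added fit and 4 to 5 with 1 mouse left out.

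With title numbers under 100 alone, FADD IEC-KO Mlkl-/- had 2 calls in place of 5 versus Fadd fl/fl, 1 in place of 3 versus FADD IEC-KO Zbp1-/- and 2 in place of 5 versus FADD IEC-KO RIPK3 IEC-KO, and CASP8 IEC-KO Mlkl-/- versus FADD IEC-KO Mlkl-/- had 3 in place of 5, all with fewer mice. Fitted alone, FADD IEC-KO Mlkl-/- versus FADD IEC-KO Zbp1-/- had 1. With 1 mouse left out, the counts were 0 to 1 for FADD IEC-KO Zbp1-/- versus Fadd fl/fl (1 without Zbp1-/- replicate 4), 2 to 3 for FADD IEC-KO Mlkl-/- versus FADD IEC-KO Zbp1-/-, 3 to 5 for FADD IEC-KO Mlkl-/- versus FADD IEC-KO RIPK3 IEC-KO (3 without RIPK3 IEC-KO replicate 4 or 5 or Mlkl-/- replicate 2) and 2 to 5 for CASP8 IEC-KO Mlkl-/- versus FADD IEC-KO Mlkl-/-. The cause was not tested.

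Over all genes, 313 calls for MLKL loss without FADD became 145 to 497 and 541 without caspase-8 became 176 to 1083 in the fits with all mice or 1 series. With 1 mouse left out and in the other fits, 727 for FADD IEC-KO versus Fadd fl/fl became 309 to 1090 and 3 to 995, and 813 for CASP8 IEC-KO versus Casp8 fl/fl became 204 to 1354 and 10 to 1216. Against FADD IEC-KO, 648 with Zbp1-/- became 239 to 1041 and 0 to 998, and 303 with RIPK3 IEC-KO became 53 to 667 and 0 to 488. Against Fadd fl/fl, 2040 for FADD IEC-KO Mlkl-/- became 1220 to 1926 and 305 to 2558, 2313 with Zbp1-/- became 1507 to 2421 and 72 to 2577, and 239 with RIPK3 IEC-KO became 81 to 454 and 1 to 332. For the triple mutant versus CASP8 IEC-KO Mlkl-/-, 605 became 317 to 635 and 0 to 1479. In the other 8 comparisons, too, some fit moved the count by over 1.5 times. Scaling moved the median of all genes by at most 0.0411. No paired analysis was possible because the labels give no replicate numbers shared between groups. Averaging probes was not run, since each member has 1.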
